A study of Homo sapiens with 4 samples.

Results

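Gene expression was compared between DU145 cells exposed for 48 h to C-30 at 0.5 µM and DU145 cells exposed for 48 h to No.10-3 at 5 µM, as the log2 signal with C-30 minus the log2 signal with No.10-3. A gene was described when the higher of its signals on these arrays exceeded the background level of the array that held it, set at the 95th percentile of its negative control probe sets. The rule kept 6235 of 17687 named genes. DU145 is a human cell line of castration-resistant prostate cancer, grown here in serum-containing medium, and the study describes both compounds as inhibitors of PSF. It holds 4 arrays of total RNA, 1 each for C-30 at 0.5 µM, C-30 at 2 µM, No.10-3 at 5 µM and vehicle. The array of the higher C-30 dose and the vehicle array did not enter the difference, and their levels are given beside it. The compounds were given at different doses, so compound and dose cannot be told apart. There is 1 array per condition, so neither errors nor p-values can be given, and every statement describes these arrays.

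PSF, the product of SFPQ, is a nuclear RNA-binding protein that works with its partner NONO in transcription and splicing. Growing cells make most of their histone mRNA in S phase, while the genes of mitosis are transcribed mainly in G2 and M. Cholesterol is made from acetyl-CoA through mevalonate and squalene, and the genes of this route are switched on together by the transcription factor SREBP-2 when sterols in the endoplasmic reticulum are scarce.

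Relative to No.10-3, C-30 at 0.5 µM gave lower signals for histone and mitosis genes and higher signals for several genes of sterol synthesis, NF-kB feedback and the proteasome. At 2-fold, a log2 difference of 1 on the scale of the deposited values, 240 of the 6235 genes differed, a share of 3.85%. Of these, 59 were higher with C-30, which is 0.946% of the genes, and 181 were lower, which is 2.9%. The lower genes therefore made up 75.4% of those past 2-fold. Both arrays were above background for 31 of the higher and 118 of the lower genes. The other 28 higher and 63 lower genes were above background on 1 array, and their folds are given as lower bounds, taken against the background level of the dimmer array. With every such gene at its bound, 35 genes were higher and 128 lower.

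The difference had a median of -0.14 over the 6235 genes, with 37.2% above 0 and 62.8% below 0. Counts of higher and lower genes in the lists below are to be read beside those shares. The 25th and 75th percentiles were -0.43 and 0.16, and the extremes were -1.81 and 1.77. The split between higher and lower genes moved with the scaling of the arrays. Centring both arrays on the median of the described genes gave 118 higher and 102 lower genes, so that 46.4% were lower. Quantile normalization gave 51.4% lower, and a lowess correction on signal 52.2%. Centring on the ERCC probe sets, which read synthetic spike RNAs, gave 91.9% lower, and centring on the hybridization spikes, chosen after seeing the data, gave 98.9% lower. These settings moved the median of the described genes by 0.14, 0.13, 0.13, -0.13 and -0.40, and differences below are best read against that range. Centring moves every gene alike, so a list keeps its distance from the median of all described genes. That median was -0.54 with the hybridization spikes.

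Array noise can be judged only from the control probe sets. The 63 ERCC probe sets differed by a median of 0.13 with a robust SD of 0.165, but only 1 lay above the background level. Positive control probe sets, which read exons of commonly expressed genes, passed 2-fold in 101 of 2027 cases above background. That share of 4.98% is larger than the 3.85% of the described genes, with 34 probe sets higher and 67 lower. As they read transcripts of the treated cells, their differences hold compound and dose as well as noise. Their share is therefore no measure of noise alone. Over all 612 negative control probe sets, 29.7% passed 2-fold, with a robust SD of 0.925. Those above background on either array passed 2-fold in 32 of 48 cases (66.7%), 17 higher and 15 lower, with a robust SD of 2.53. These 48 were picked by a high value on either array, which favours probe sets that differ, so their share overstates the noise. The hybridization spikes bioB, bioC, bioD and cre were brighter on the C-30 array, with differences from 0.33 for cre to 0.44 for bioC. For bioB the signals were 8.81 with C-30 and 8.38 with No.10-3. Other spikes did not share a direction, with differences of -0.01 for dap, 0.06 for phe, -0.46 for thr and 0.53 for lys. Of these, only dap was above background on both arrays, and phe and lys were below it on both. They did not enter the centring on the hybridization spikes. Background levels were 7.11 on the C-30 array and 7.06 on the No.10-3 array, and the signals of the arrays correlated at Pearson r = 0.987 across all named genes, which are not independent replicates. At the edge of the rule, PSME1 at 7.11 and ZNF57 at 7.07 were just inside, and TTYH3 at 7.06 was just outside.

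Markers of the cells matched the label in part. Of 8 genes set as markers of DU145 epithelial cells, 6 were above background (KRT8, KRT18, KRT19, EPCAM, VIM and CD44), whereas CDH1 and ITGB4 were not. None of 4 measured androgen-driven luminal genes was above background, and KLK3, the prostate-specific antigen gene, had signals of 6.63 with C-30 and 6.47 with No.10-3. None of the 4 endothelial and none of the 4 fibroblast markers was above background. Among 5 leukocyte markers only CD68, which cancer cell lines can also express, was above it, at 8.55 with C-30 and 9.50 with No.10-3. The summed linear signal of the leukocyte list was 505.56 with C-30 and 816.77 with No.10-3, with PTPRC, CD3E, CD79A and CD14 below background, and its part in other differences was not tested. The summed signal of the epithelial list was also lower with C-30, at 30334.4 against 58211 with No.10-3. That sum is weighted to its brightest gene, VIM, a filament gene of mesenchymal cells too, at 14.12 with C-30 and 15.22 with No.10-3. The mean log2 signal of the 8 genes was 9.45 with C-30 and 9.91 with No.10-3. CDH1, below background, was higher with C-30. The endothelial sum was also lower with C-30, while the luminal and fibroblast sums were higher. In bulk RNA, fewer cells of a kind and less RNA per cell cannot be told apart.

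**Figure D1:**
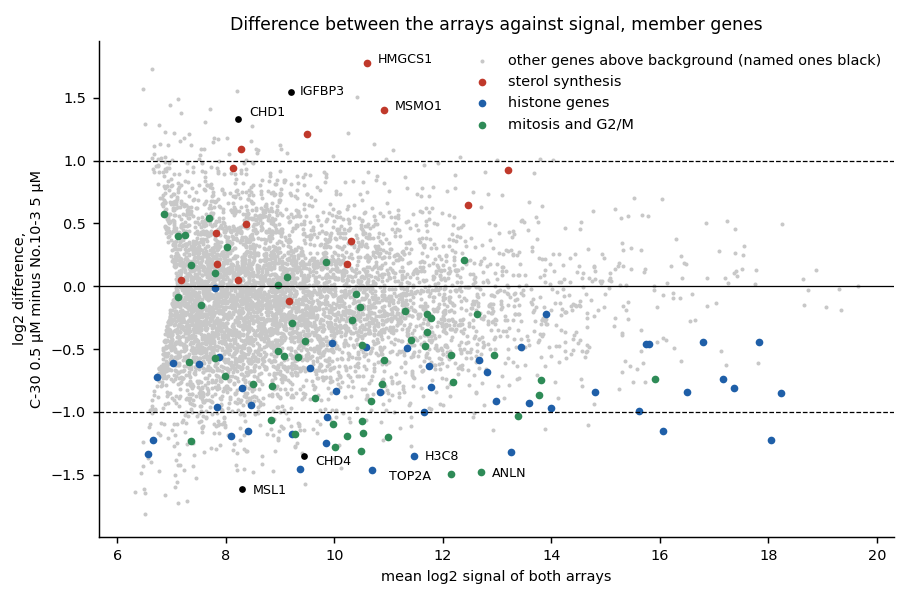
Log2 difference between C-30 at 0.5 µM and No.10-3 at 5 µM against the mean log2 signal of both arrays, 1 point per described gene (6235 genes), with dashed lines at 2-fold. HMGCS1 at 1.77 lies at the top, and histone and mitosis genes such as H3C8 at -1.35 and TOP2A at -1.50 lie below 0 over a wide range of signal.

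The gene of PSF itself was at nearly the same level on both arrays. SFPQ (chromosome 1, 35176380 to 35193145, GRCh38.p14) had a signal of 12.60 with C-30 and 12.61 with No.10-3, beside 12.68 with C-30 at 2 µM and 12.59 with vehicle. PSPC1 differed by 0.03, at 9.88 with C-30 and 9.85 with No.10-3. NONO stood at 11.82 with C-30 and 12.17 with No.10-3, a difference of -0.35. Of 11 described genes of the PSF and paraspeckle list, 4 were higher and 7 lower with C-30, and their median difference was -0.07 beside -0.14 over all described genes, or 0.07 after centring on the median of the described genes. RBM14, a paraspeckle protein gene, was the member past 2-fold, with 10.59 for C-30 and 11.60 for No.10-3. The other arrays both read 10.79 for it, so the No.10-3 array was the high one. TAF15, an RNA-binding protein gene, differed by -0.89 and TARDBP, which encodes TDP-43, by 0.55.

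Genes of sterol synthesis held the highest difference of all and the highest median of any list with at least 5 described genes. Of 15 described genes of this pathway, 14 were higher with C-30 than with No.10-3 and 4 passed 2-fold, with a median difference of 0.50 beside -0.14 for all described genes. HMGCS1, the HMG-CoA synthase gene (chromosome 5, 43287470 to 43313412), had a signal of 11.49 with C-30 and 9.71 with No.10-3, a difference of 1.77 or 3.42-fold. C-30 at 2 µM gave 12.26 and vehicle 10.92, so that No.10-3 was the low array and both C-30 arrays were above vehicle. MSMO1, the sterol methyl oxidase gene, read 11.62 with C-30 and 10.22 with No.10-3, beside 12.07 with C-30 at 2 µM and 11.35 with vehicle. In both genes the arrays ran No.10-3, vehicle, C-30 and C-30 at 2 µM from low to high. IDI1, which encodes the isomerase of isopentenyl diphosphate, had the same order with another spacing. It stood at 10.10 with C-30 and 8.88 with No.10-3, while C-30 at 2 µM reached 11.61 and vehicle, at 9.00, was close to No.10-3. SQLE, the squalene epoxidase gene, had 8.83 with C-30 and 7.74 with No.10-3, a difference of 1.09.

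The remaining members of the pathway showed smaller differences. ACAT2, the thiolase gene at its first step, differed by 0.94, and DHCR7, the reductase of the last step to cholesterol, by 0.92. For DHCR7 the signals were 13.66 with C-30 and 12.73 with No.10-3, while C-30 at 2 µM gave 14.39 and vehicle 14.46, so the lower C-30 dose lay between No.10-3 and vehicle. FDPS, the farnesyl diphosphate synthase gene, differed by 0.64, TM7SF2 by 0.50 and MVK by 0.42. EBP at 0.36, NSDHL and CYP51A1 at 0.18 each, HSD17B7 and PMVK at 0.05 each and LSS at -0.11 were nearer to 0. A further 3 genes of the list, MVD, GGPS1 and SC5D, were below background on both arrays. Across the pathway the median stayed above 0 at every setting tried, between 0.09 with the hybridization spikes and 0.93 with a background level at the 99th percentile.

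Control of the pathway was read through SREBF2, which encodes SREBP-2, and INSIG1, which encodes the protein that holds it in the endoplasmic reticulum. SREBF2 was at 8.60 with C-30 and 7.75 with No.10-3, with 8.54 for C-30 at 2 µM and 9.51 for vehicle. INSIG1 had a signal of 8.05 with C-30 but 7.01, below background, with No.10-3, which puts it at least 1.98-fold higher with C-30. SCAP, the escort protein of SREBP, went the other way at -0.57. STARD4, a sterol transfer protein gene above background on the No.10-3 array only, was at least 1.04-fold lower. Over the 9 described genes of SREBP control and cholesterol transport the median was 0.15, with 6 higher and none past 2-fold by the bound. It turned to -0.25 after centring on the hybridization spikes, where all described genes had -0.54. SCD, the stearoyl-CoA desaturase gene of fatty acid synthesis, read 14.30 with C-30 and 13.29 with No.10-3, a difference of 1.01. FASN, the fatty acid synthase gene, differed by 0.60 and ACACA, which encodes acetyl-CoA carboxylase, by -0.63. The 11 described fatty acid genes had a median of -0.05, with 5 higher and 6 lower, and the median turned to 0.14 over those above background on both arrays and to 0.16 at the 99th percentile.

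**Figure D2:**
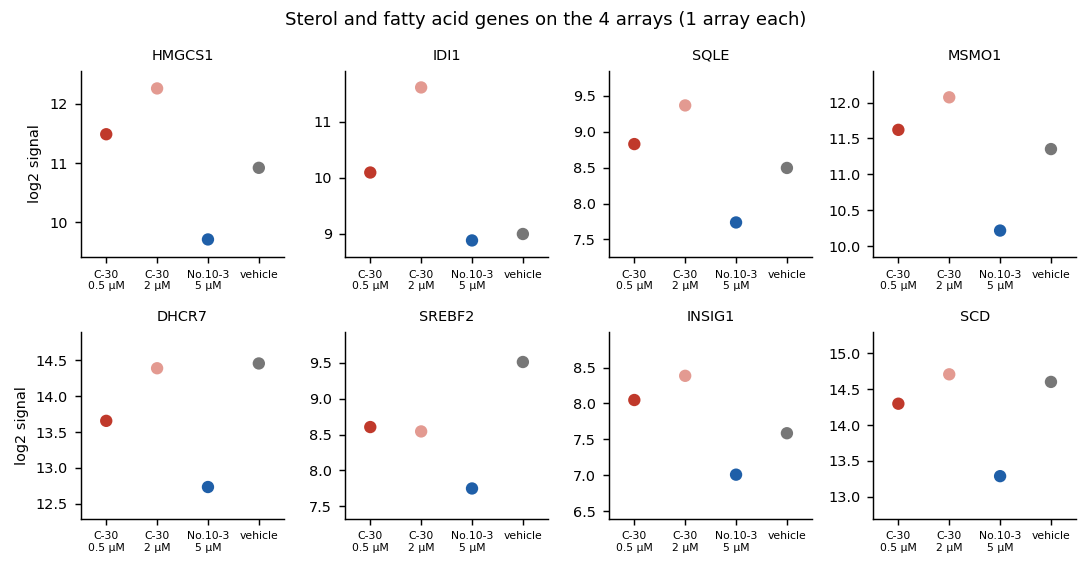
Log2 signal of 8 sterol and fatty acid genes on the 4 arrays, 1 point per array, each panel with its own axis range. No.10-3 is the lowest array in all 8 panels, as for HMGCS1 at 9.71 against 11.49 with C-30 at 0.5 µM, whereas vehicle is above both C-30 arrays for DHCR7 and SREBF2.

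Promoters of the 3 leading sterol genes are shown because the genes moved in the same direction, and the letters searched were those of the CCAAT box (CCAAT), which binds NF-Y, and the core of the sterol regulatory element (CACCCCA), each on both strands. Sequences are from RefSeq, GRCh38.p14, 250 bases before to 50 after the annotated start, written 5′ to 3′ on the strand of the gene. Capitals mark CCAAT or its reverse complement ATTGG. HMGCS1 lies at chr5:43313363-43313662 on the minus strand, MSMO1 at chr4:165327419-165327718 on the plus strand and IDI1 at chr10:1056655-1056954 on the minus strand.
HMGCS1: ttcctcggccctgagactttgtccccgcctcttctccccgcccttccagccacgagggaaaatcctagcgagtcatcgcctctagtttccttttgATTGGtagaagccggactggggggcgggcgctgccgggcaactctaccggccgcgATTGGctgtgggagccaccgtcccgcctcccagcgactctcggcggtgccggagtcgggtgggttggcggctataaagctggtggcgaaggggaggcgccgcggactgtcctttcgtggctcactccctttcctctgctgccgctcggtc
MSMO1: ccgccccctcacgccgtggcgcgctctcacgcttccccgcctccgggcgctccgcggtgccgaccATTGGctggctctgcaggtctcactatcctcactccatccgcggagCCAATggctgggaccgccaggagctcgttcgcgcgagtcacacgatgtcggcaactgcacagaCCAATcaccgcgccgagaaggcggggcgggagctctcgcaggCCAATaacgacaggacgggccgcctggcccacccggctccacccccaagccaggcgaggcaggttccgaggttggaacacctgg
IDI1: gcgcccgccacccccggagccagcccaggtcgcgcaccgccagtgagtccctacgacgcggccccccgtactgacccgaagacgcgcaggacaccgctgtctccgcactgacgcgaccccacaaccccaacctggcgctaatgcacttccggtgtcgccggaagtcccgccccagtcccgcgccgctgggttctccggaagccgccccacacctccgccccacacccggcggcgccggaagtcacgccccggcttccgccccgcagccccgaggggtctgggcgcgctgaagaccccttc
The HMGCS1 window holds CCAAT at 155 and 100 bases before the start, and MSMO1 holds it 4 times, at 185, 139, 76 and 34. The IDI1 window holds no CCAAT, and none of the 3 holds CACCCCA. Of 13 sterol genes with a promoter in the table, 10 hold CCAAT (76.9%) and 2 hold CACCCCA (15.4%). Among all 27305 promoters the shares are 35.7% and 7.83%, and among 5257 promoters of described genes 38.3% and 7.27%. These matches describe letters and not sites.

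Histone genes expressed in S phase had the lowest median of any list. All 47 described genes of this family were lower with C-30 than with No.10-3, 13 of them past 2-fold, 11 by the bound, with a median difference of -0.84. That direction held at every scaling tried, with a median between -1.24 and -0.70. H3C11, a histone H3 gene (chromosome 6, 27871845 to 27872346), had a signal of 9.97 with C-30 and 11.43 with No.10-3, a difference of -1.46. Its signal with C-30 at 2 µM was 7.39 and with vehicle 11.71. The No.10-3 array was thus close to vehicle, and the higher C-30 dose was lower again than the lower dose. H3C8 showed the same order, at 10.78 with C-30, 7.98 with C-30 at 2 µM, 12.13 with No.10-3 and 12.55 with vehicle. H2BC10, a histone H2B gene, was at 8.65 with C-30 and 10.10 with No.10-3, and C-30 at 2 µM, at 6.31, was below background.

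Differences were spread over the 5 classes of histone. The 6 H3 genes had a median of -1.12 and 4 of them passed 2-fold. The 15 H2B genes had a median of -0.84 with 4 past 2-fold, and the 10 H4 genes -0.83 with 3. The 12 H2A genes stood at -0.67 with 2 past 2-fold. Linker histone genes, the 4 of class H1, had a median of -0.68 and none past 2-fold, although H1-5 came to -0.99 with 15.12 for C-30 and 16.12 for No.10-3. Bright genes were included, as H2AC14 read 17.44 with C-30 and 18.67 with No.10-3. At the other end H2BC6 differed by -0.01, at 7.79 with C-30 and 7.81 with No.10-3. Histone genes of this family are near-identical copies, so probes may read more than 1 gene and the 47 values are not separate measurements. The list was drawn up with low histone signals on the C-30 arrays already known, so its direction is a description.

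**Figure D3:**
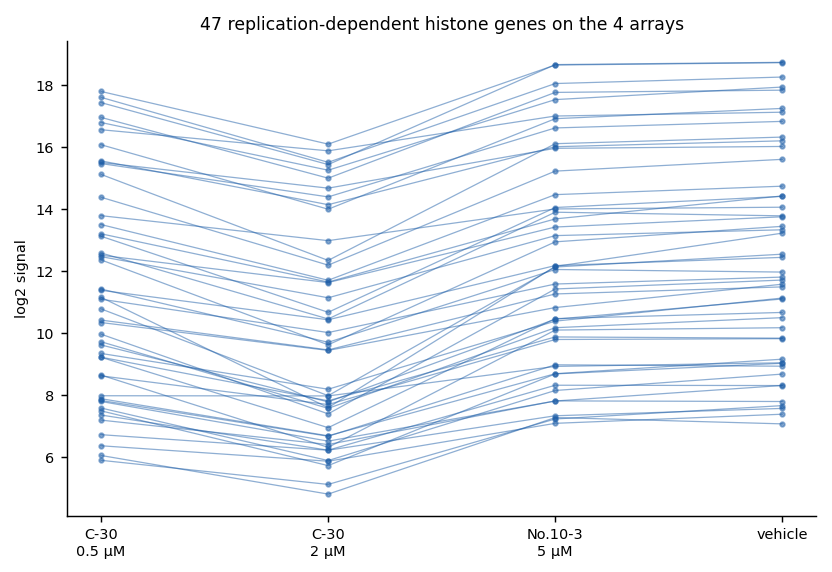
Log2 signal of the 47 described replication-dependent histone genes on the 4 arrays, 1 line per gene. Lines lie lower with C-30 at 0.5 µM than with No.10-3, as for H3C8 at 10.78 and 12.13, and lie lower again with C-30 at 2 µM for most genes, as for H3C8 at 7.98.

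Histone promoters are printed because the family was lower as a group, with letters searched for the CCAAT box and the TATA box (TATAAA) on both strands and capitals for CCAAT. The table holds none for H3C11. H2BC10 lies at chr6:26272681-26272980 on the plus strand and H3C8 at chr6:26271364-26271663 on the minus strand.
H2BC10: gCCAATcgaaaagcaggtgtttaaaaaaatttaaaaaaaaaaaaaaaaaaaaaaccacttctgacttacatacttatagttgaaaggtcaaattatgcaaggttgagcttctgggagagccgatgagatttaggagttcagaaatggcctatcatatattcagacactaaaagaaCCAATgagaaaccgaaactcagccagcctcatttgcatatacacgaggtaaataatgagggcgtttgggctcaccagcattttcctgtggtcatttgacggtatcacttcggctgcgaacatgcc
H3C8: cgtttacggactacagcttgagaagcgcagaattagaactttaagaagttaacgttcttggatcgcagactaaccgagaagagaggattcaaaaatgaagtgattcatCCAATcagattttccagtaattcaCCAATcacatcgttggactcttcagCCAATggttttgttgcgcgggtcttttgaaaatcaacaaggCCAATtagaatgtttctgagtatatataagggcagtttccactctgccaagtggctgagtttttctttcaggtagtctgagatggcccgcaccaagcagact
CCAAT occurs 4 times in the H3C8 window, at 142, 118, 93 and 52 bases before the start, and in that of H2BC10 at 249 and 75. Neither holds TATAAA. Of 43 histone promoters in the table, 35 hold CCAAT (81.4%) and 30 hold TATAAA (69.8%), against 12.0% of all promoters and 5.67% of those of described genes for TATAAA.

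Genes around the histone list were less far from the rest. The 13 described genes of histone mRNA transcription and processing had a median of -0.16 and none past 2-fold. The 33 genes of DNA replication licensing and the fork had a median of -0.17, with 10 higher and 23 lower. None was past 2-fold by the bound. ORC6, a subunit of the origin recognition complex, was at 7.15 with C-30 and 5.86, below background, with No.10-3, which puts it at least 1.06-fold higher. MCM6 at -0.94 and MCM5 at -0.81 encode subunits of the replicative helicase, and RFC3, of the clamp loader, stood at 0.84. The 25 genes of nucleotide synthesis had a median of -0.30, with 9 higher and 16 lower. Among all described genes 62.8% were below 0, the share beside which this split and that of the replication genes stand. DHODH, the dihydroorotate dehydrogenase gene of pyrimidine synthesis, read 7.31 with C-30 and 8.38 with No.10-3, and UMPS, which completes UMP, differed by -0.90. IMPDH2, of guanine nucleotide synthesis, was at -0.74, whereas DTYMK, the thymidylate kinase gene, below background with No.10-3, was at least 1.15-fold higher.

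Genes of mitosis and G2/M were lower with C-30 in 46 of 57 cases, 13 of them past 2-fold, 12 by the bound, and none past 2-fold higher, with a median difference of -0.55. The median ranged from -0.95 to -0.40 over the settings tried. TOP2A, the topoisomerase that untangles replicated chromosomes (chromosome 17, 40388525 to 40417896), had a signal of 11.40 with C-30 and 12.89 with No.10-3. It was at 11.53 with C-30 at 2 µM and 11.33 with vehicle, so the No.10-3 array alone was high. ANLN, a scaffold of the cytokinetic ring, read 11.96 with C-30 and 13.44 with No.10-3, while C-30 at 2 µM gave 12.38 and vehicle 11.56, and again No.10-3 was the highest array. INCENP, the scaffold of the chromosomal passenger complex, was at 9.84 with C-30 and 11.15 with No.10-3, beside 9.72 and 10.08 with C-30 at 2 µM and vehicle. ECT2, the exchange factor that starts the cleavage furrow, differed from the last by having its low value on the C-30 array, at 9.36 against 10.65 with No.10-3, while C-30 at 2 µM gave 10.05 and vehicle 10.06.

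Other mitosis genes past 2-fold showed a mixed order among the arrays. CCNB1, the cyclin B1 gene, was at 9.42 with C-30 and 10.51 with No.10-3, but at 10.75 with C-30 at 2 µM and 9.69 with vehicle. KIF2C, a kinesin that takes microtubules apart, was likewise higher with C-30 at 2 µM, at 10.28, than with C-30 at 0.5 µM, at 8.68, or with No.10-3, at 9.86. CENPF, a kinetochore protein gene, read 8.31 with C-30 and 9.37 with No.10-3, and its vehicle signal of 5.92 was below background. MKI67, the proliferation marker gene, was at 12.87 with C-30 and 13.90 with No.10-3. DLGAP5 at -1.20, KIF20A at -1.19, KIFC1 at -1.17 and PTTG1, the securin gene, at -1.07 complete the genes above background on both arrays. CDC25C, the phosphatase gene that activates CDK1, was at least 1.82-fold lower with C-30. CDK1 itself differed by -0.06, the cyclin gene CCNA2 by 0.07 and the spindle motor gene KIF11 by 0.01, so the difference did not extend to every gene of the list. Highest of the genes above background on both arrays was SKA1, a kinetochore gene, at 0.54, and NUF2, another kinetochore gene below background with No.10-3, was at least 1.06-fold higher.

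**Figure D4:**
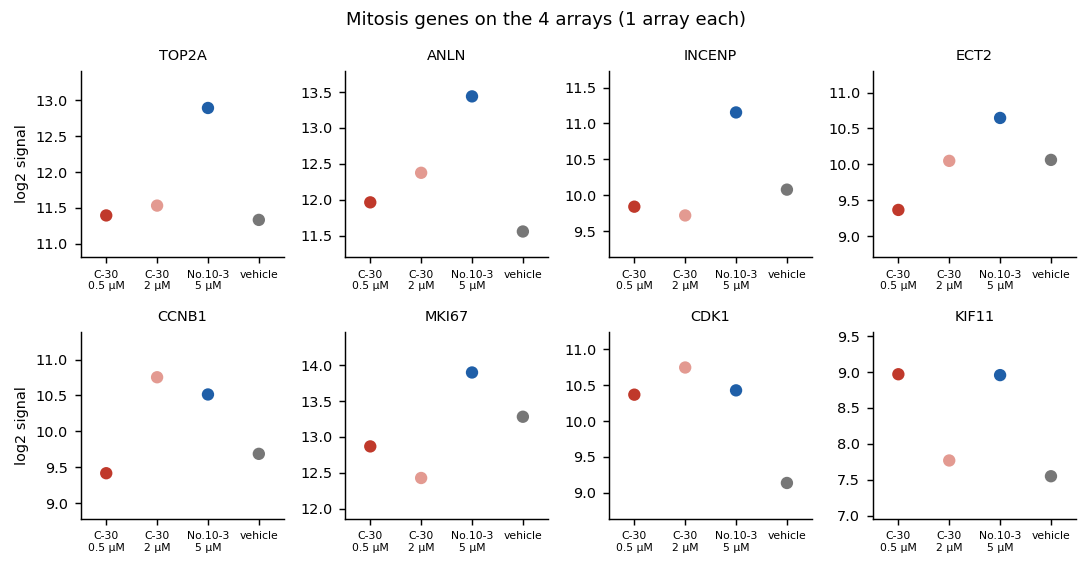
Log2 signal of 8 mitosis genes on the 4 arrays, 1 point per array, each panel with its own axis range. TOP2A, ANLN, INCENP, ECT2 and MKI67 are highest with No.10-3, whereas CCNB1 is highest with C-30 at 2 µM and CDK1 and KIF11 stand at about the same level with C-30 at 0.5 µM and No.10-3.

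Mitosis promoters are printed for the same reason, searched on both strands for CCAAT and for the core of the cell cycle genes homology region (TTTGAA), a short element described in promoters of late cell cycle genes. Capitals mark both, and no match of one overlaps a match of the other in these windows. TOP2A lies at chr17:40417847-40418146 on the minus strand, ANLN at chr7:36389612-36389911 on the plus strand and INCENP at chr11:62123761-62124060 on the plus strand.
TOP2A: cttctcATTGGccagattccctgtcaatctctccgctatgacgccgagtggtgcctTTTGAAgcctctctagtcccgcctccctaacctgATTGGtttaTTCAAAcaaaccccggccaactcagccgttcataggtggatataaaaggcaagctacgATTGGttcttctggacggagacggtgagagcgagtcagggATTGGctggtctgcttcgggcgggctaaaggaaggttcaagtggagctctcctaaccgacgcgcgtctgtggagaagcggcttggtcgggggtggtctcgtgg
ANLN: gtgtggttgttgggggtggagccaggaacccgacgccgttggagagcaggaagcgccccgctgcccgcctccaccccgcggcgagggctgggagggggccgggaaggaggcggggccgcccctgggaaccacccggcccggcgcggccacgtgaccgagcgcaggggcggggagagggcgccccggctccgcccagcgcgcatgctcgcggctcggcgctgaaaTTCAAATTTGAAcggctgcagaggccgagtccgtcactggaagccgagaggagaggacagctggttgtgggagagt
INCENP: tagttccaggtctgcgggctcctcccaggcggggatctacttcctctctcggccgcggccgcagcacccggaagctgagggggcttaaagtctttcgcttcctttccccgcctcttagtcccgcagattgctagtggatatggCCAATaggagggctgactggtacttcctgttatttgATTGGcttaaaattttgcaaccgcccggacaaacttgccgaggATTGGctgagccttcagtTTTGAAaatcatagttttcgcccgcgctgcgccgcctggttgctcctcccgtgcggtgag
TOP2A holds CCAAT 4 times, at 244, 160, 93 and 53 bases before the start, and TTTGAA at 194 and 151. ANLN holds TTTGAA on opposite strands at 26 and 20 and no CCAAT. INCENP holds TTTGAA 10 bases before the start and CCAAT at 107, 71 and 28. Of 47 mitosis promoters in the table, 35 hold TTTGAA (74.5%) and 36 hold CCAAT (76.6%), while TTTGAA is in 15.4% of all promoters and 9.42% of those of described genes.

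Genes of the G1/S transition and of growth factor signalling also had medians below that of all described genes, of which 62.8% were below 0. Of 14 G1/S genes, 11 were lower with C-30 and 2 passed 2-fold, with a median of -0.33. These were RBL2, which encodes the pocket protein p130, at 7.71 with C-30 and 9.03 with No.10-3, and RB1, the retinoblastoma gene, at 7.81 with C-30 and 8.88 with No.10-3. For RB1 the vehicle array, at 7.88, was close to C-30 and C-30 at the higher dose, at 8.61, close to No.10-3. CDK4 differed by -0.75 and E2F8 by -0.76, and the CDK inhibitor genes CDKN1A and CDKN1B stood on the other side at 0.69 and 0.60. Among 16 TGF-beta, BMP and YAP genes 11 were lower, none past 2-fold, with a median of -0.38. TGFB1, the ligand gene, was at -0.98, its receptor gene TGFBR1 at -0.79 and the BMP target ID1 at -0.80, while the YAP target ANKRD1 was at 0.94. For ID1 the signals were 11.05 with C-30, 9.91 with C-30 at 2 µM, 11.85 with No.10-3 and 11.89 with vehicle, the order seen for histone genes.

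Short lists on the same side had 5 described genes each. The integrin genes had a median of -0.38, which turned to 0.094 without a background level, and ITGA3, the alpha-3 subunit gene, was the member past 2-fold, at 13.32 with C-30 and 14.46 with No.10-3. ITGB1 and ITGAV were higher with C-30, at 0.31 and 0.36. All 5 described genes of the MYC and MAX network were lower, although the median of the 11 measured genes was 0.06, with the lowest value, -0.50, for MAX, with MYC itself at 10.58 with C-30 and 11.00 with No.10-3. The EGF family had a median of -0.45, which turned to 0.777 with the background level at the 99th percentile. In it the receptor genes ERBB3 at -0.81 and EGFR at -0.45 were lower and the ligand gene EREG higher at 0.78, while TGFA, another ligand gene above background with No.10-3 only, was at least 1.06-fold lower. VIM, the intermediate filament vimentin of mesenchymal cells, read 14.12 with C-30 and 15.22 with No.10-3, whereas C-30 at 2 µM gave 14.09 and vehicle 14.30. Among keratin genes of epithelial cells, KRT8 was at -0.79, KRT19 at -0.63, KRT18 at -0.27 and KRT7 at 0.38. Over the 10 described epithelial and mesenchymal genes 4 were higher and 6 lower, with a median of -0.18, which became 0.002 without a background level.

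Proteasome subunit genes were higher with C-30 in 27 of 34 cases, 2 of them past 2-fold, with a median difference of 0.25. It turned to -0.15 after centring on the hybridization spikes, where all described genes had -0.54. PSMD14, the deubiquitinase of the 19S lid, had a signal of 9.03 with C-30 and 7.88 with No.10-3, and 7.88 also with vehicle. PSMA6 was at 14.53 with C-30 and 13.53 with No.10-3, beside 14.61 with C-30 at 2 µM and 13.57 with vehicle, so both C-30 arrays were high. PSMA3 at 0.88 and PSMA4 at 0.82, like PSMA6, encode subunits of the outer rings of the 20S core. Cytosolic ribosomal protein genes were higher in 40 of 48 cases, none past 2-fold, with a median of 0.21 or, with the hybridization spikes, -0.19. RPL22 differed most, at 14.12 with C-30 and 13.22 with No.10-3, followed by RPL36A at 0.76, and RPS27L, below background with C-30, was at least 1.72-fold lower.

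NF-kB cytokine and feedback genes were higher in 12 of 14 cases, with 3 past 2-fold by measured values, 2 by the bound, and a median of 0.23. With the hybridization spikes it was -0.18, beside -0.54 for all described genes. CXCL8, the interleukin-8 gene, was at 8.26 with C-30 and 6.96 with No.10-3, at least 2.30-fold higher, beside 8.80 with C-30 at 2 µM and 6.34 with vehicle. TNFAIP3, which encodes the feedback inhibitor A20, read 10.86 with C-30 and 9.64 with No.10-3, while C-30 at 2 µM gave 10.96 and vehicle 10.32. RELB, an NF-kB subunit gene, was at least 1.12-fold higher with C-30 and the cytokine gene LIF was at 0.57. Between C-30 at 2 µM and vehicle, 10 of the 14 NF-kB genes were below 0. None of 20 measured interferon response genes was above background on the C-30 or No.10-3 array. Of 22 genes of the integrated stress response 14 were higher, with a median of 0.18, or -0.22 with the hybridization spikes. ATF3, a stress transcription factor gene, stood at 7.41 with C-30 and 6.13 with No.10-3, at least 1.27-fold higher, and at 9.40 with C-30 at 2 µM. ATF4 differed by 0.65, CEBPG by 0.74 and PHGDH, of serine synthesis, by -0.64.

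Chaperone genes of the endoplasmic reticulum had a median of 0.01 over 19 genes, which turned to -0.12 with ERCC centring, with 10 higher and 9 lower, and 2 passed 2-fold. HERPUD1, a gene of degradation at that membrane, read 11.30 with C-30 and 10.17 with No.10-3, and DNAJB11, a co-chaperone of BiP, 9.65 with C-30 and 8.59 with No.10-3. BNIP3L, a mitophagy receptor gene of the BCL2 family, was at 11.46 with C-30 and 10.45 with No.10-3, and BNIP3 differed by 0.84. Of 9 described BCL2 family genes, 3 were higher and 6 lower, with a median of -0.09. That median turned to 0.38 with the background level at the 99th percentile. The 25 described genes of glycolysis, glycogen and hypoxia had a median of -0.03, with 11 higher and 14 lower. VEGFA, the vascular growth factor gene, stood at 13.51 with C-30 and 12.50 with No.10-3, and HK1, the hexokinase 1 gene, at 10.16 with C-30 and 11.04 with No.10-3. In both VEGFA and HERPUD1 the No.10-3 array was the lowest of the 4, with vehicle at 13.33 and 10.83.

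Single members of small lists differed in opposite directions. Among 9 chromatin remodelling ATPase genes, with a median of 0.21 or, with the hybridization spikes, -0.19, CHD1 was higher and CHD4 lower with C-30. CHD1, whose protein binds methylated histone H3, was at 8.89 with C-30 and 7.57 with No.10-3, beside 7.65 with C-30 at 2 µM and 6.09, below background, with vehicle. CHD4, the ATPase of the NuRD complex, read 8.77 with C-30 and 10.12 with No.10-3, while C-30 at 2 µM gave 8.91 and vehicle 10.00, so both C-30 arrays were low. HELLS, a gene needed for DNA methylation, differed by 0.87. The 6 described translesion genes had a median of 0.48, which became 0.02 over the 4 above background on both arrays. UBE2B, the ubiquitin-conjugating partner of RAD18, was at least 2.55-fold higher with C-30, at 8.41 against 7.01 with No.10-3, and its close relative UBE2A was lower at -0.73. The RAD18 gene was at 0.55 and the polymerase gene POLK, below background with No.10-3, was at least 1.26-fold higher.

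The genes with the largest differences included many outside these lists. IGFBP3, whose secreted product binds IGFs, the insulin-like growth factors (chromosome 7, 45912245 to 45921272), was at 9.97 with C-30 and 8.42 with No.10-3, a difference of 1.55, with vehicle at 10.16. IGF1R, the receptor gene of the same axis, was at -0.75. ACTR6, an actin-related subunit of a chromatin remodelling complex, read 8.99 with C-30 and 7.43 with No.10-3. BHLHE40, a transcriptional repressor gene of the circadian clock and of hypoxia, was at 11.16 with C-30 and 9.65 with No.10-3, while C-30 at 2 µM gave 11.25 and vehicle 10.62. SKAP2, an adaptor protein gene, was at 9.11 with C-30 and 7.84 with No.10-3, and vehicle, at 9.30, was the highest array. IGFBP3 and SKAP2 were thus low with No.10-3 and near vehicle with C-30. GTF2A2, the small subunit gene of TFIIA, differed by 1.17, ZC3H15 and TMEM68 by 1.18 each and IFNGR1, the interferon gamma receptor gene, by 1.15.

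At the low end, MSL1, which encodes a scaffold of a histone H4 acetyltransferase complex (chromosome 17, 40121971 to 40136917), was at 7.50 with C-30 and 9.11 with No.10-3, a difference of -1.61 or 3.06-fold. It read 8.66 with C-30 at 2 µM and 8.26 with vehicle, so the C-30 array was the lowest and the No.10-3 array the highest. BZW2, a translation regulator gene, was at 8.67 with C-30 and 10.25 with No.10-3, with vehicle at 8.90. CEP170, a centrosome protein gene, stood at 7.76 with C-30 and 9.24 with No.10-3, with vehicle at 7.40. In these genes vehicle was nearer to C-30, whereas in RAB35, a GTPase gene of endocytic recycling, it was nearer to No.10-3, at 9.33 beside 8.13 with C-30 and 9.59 with No.10-3. NRSN2 followed RAB35, with 7.61 for C-30, 9.07 for No.10-3 and 9.00 for vehicle. SFXN3, a mitochondrial serine transporter gene, differed by -1.46, ADGRE5, the adhesion receptor CD97 gene, by -1.45, and C2CD3, a centriole gene, by -1.42. METAP1, a methionine aminopeptidase gene, was at -1.41 and ATP2B4, a plasma membrane calcium pump gene, at -1.37.

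Among genes above background on 1 array only, CCDC106, NCAN, IL10RB, NOC3L and APTX were higher with C-30, by at least 2.11, 2.04, 1.93, 1.81 and 1.81-fold. APTX encodes aprataxin, which repairs broken DNA ends, and IL10RB a receptor chain of the interleukin-10 family. MYO5A, a transport myosin gene, was at least 2.41-fold lower with C-30, at 7.09 against 8.38 with No.10-3, and RFX7, a transcription factor gene, at least 2.21-fold lower. SPAG5, a spindle protein gene, was at least 2.15-fold lower and TNC, the matrix protein tenascin C gene, at least 2.04-fold lower. ZNF532, DOCK4, FNDC3A and CMTM7 had bounds of 2.06, 2.03, 2.03 and 2.02-fold lower. These 8 lower genes had a median genomic span of 140.68 kb, but all 181 lower genes had one of 36.272 kb and the 15 lowest above background on both arrays 27.28 kb, beside 32.195 kb for all described genes.

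The arrays that did not enter the difference were read for the same genes. Over the 181 genes lower with C-30 at 0.5 µM than with No.10-3, the difference between C-30 at 2 µM and vehicle had a median of -0.39, and 141 of them (77.9%) were below 0. Over the 59 higher genes the median was 0.25 and 38 were above 0. All described genes had a median of -0.09 and 56.2% below 0. By list, the 47 histone genes had a median of -2.54 between C-30 at 2 µM and vehicle, and all were below 0. The 57 mitosis genes stood at 0.25, with 38 above 0. The 15 sterol genes stood at 0.11, with 8 above 0 and 7 below, so they had no clear direction there. For mitosis the sign was thus opposite to that of the difference between C-30 at 0.5 µM and No.10-3. It was also opposite for the NF-kB list at -0.22, with 10 of 14 genes below 0, and for SREBP control at -0.58. Chromatin remodelling at -0.10, the EGF family at 0.27 and integrins at 0.01 turned as well. The rest of the 16 lists with the highest or lowest medians kept their sign, some of them barely. Ribosomal protein genes had a median of 0.02, with 25 above 0 and 23 below. Translesion genes had 0.04, with 3 above and 3 below.

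Differences were also set beside signal, which the rule used, and beside genomic span, promoter GC content and chromosome, which it did not. With the genes cut into 5 equal bins by signal, 2.09% of the dimmest bin was 2-fold higher and 4.89% lower with C-30. In the brightest bin the shares were 0.642% and 1.60%. A dim gene could enter through its brighter array alone, which favours genes that differ. The larger shares at low signal are therefore in part set by the rule. By genomic span the median was -0.10 in the bin of shortest genes, up to 10.6 kb, and -0.22 in that of the longest, from 88.6 kb. The longest genes had 4 genes 2-fold higher and 48 lower with C-30, and the shortest had 10 higher and 46 lower. Those 46 include the 13 histone genes past 2-fold, which span 388 to 508 bases. Over bins of promoter GC content, known for 5257 genes, the medians lay between -0.17 and -0.11. By chromosome they lay between -0.23 on chromosome 11 and -0.02 on chromosome 13.

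**Figure D5:**
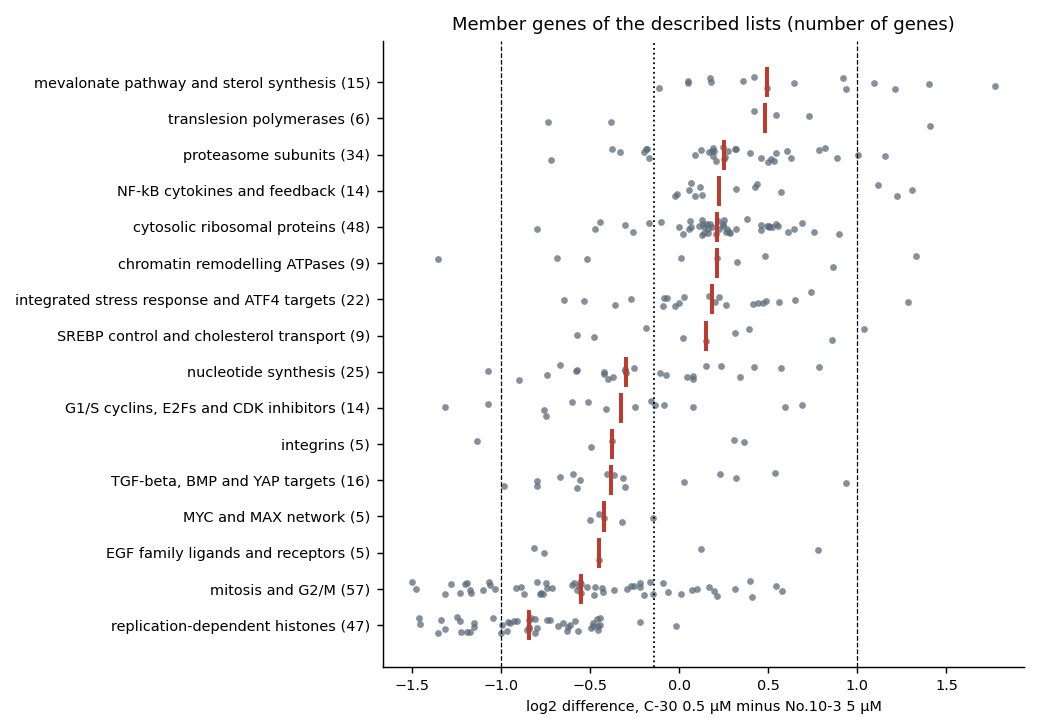
Log2 difference between C-30 at 0.5 µM and No.10-3 at 5 µM for described genes of the 8 lists with the highest and the 8 with the lowest medians, 1 point per gene, with the list median as a red bar, the median of all described genes (-0.14) dotted and 2-fold dashed. Sterol synthesis has its median at 0.50 and histone genes theirs at -0.84, while the medians of SREBP control, stress response, chromatin, ribosomal, NF-kB and proteasome lists turn below 0 after centring on the hybridization spikes. That centring moves the median of all described genes to -0.54.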

How the data were processed

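Total RNA of DU145 cells was hybridized to whole-transcript arrays, 1 per condition. The deposited values are log2 signals that the authors made by RMA in Affymetrix Expression Console 1.3.0, as the submitters' processing notes list. The log base was inferred from the values and the usual output of RMA, and the highest gene value, 19.66, is above what scanner readings span, so 2-fold is meant on this scale. The build and annotation of the processing are not stated in these sources. Of 24351 probe sets, 17709 had 1 gene symbol, 0 had several and 6642 had none. Symbols were updated by Entrez identifier, all 17709 matching, and 20 genes with several probe sets were averaged, which left 17687. The deposited tables differed by at most 5e-05.

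Genes were described above the 95th percentile of negative controls and counted at 2-fold. With 1 array per condition no test was made, and precision is limited by this number. Named were the 15 highest and 15 lowest genes above background on both arrays, the 8 highest and 8 lowest by bound above it on 1 array, SFPQ, NONO and PSPC1, and up to 4 members of each of 24 described lists. Of 46 lists, these had the 8 highest or 8 lowest medians among those with at least 5 genes, or a called share at least 3 times that of all genes. Small RNA, olfactory receptor and immune receptor segment genes and uncharacterised loci did not enter the ranking. Other members named were chosen after their values were seen. Members and lists were chosen with earlier results of these data known. Alternatives were a 1.5-fold threshold, background at the 99th percentile or none, both signals above background, dim signals raised to background, 5 rescalings, the brightest probe set, the other table and no histone genes. The procedure was tested on simulated data, with large differences placed in bright genes and less noise than the positive and negative controls show. That test checks the computation and says nothing of the error of the counts. Computation used pandas 2.3.3 and numpy 2.4.6 in Python 3.11.15, with statsmodels 0.14.6 for lowess and matplotlib 3.10.9 for plots.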

Additional observations from a re-analysis of the deposited data

How the results depend on the processing

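The 59 higher and 181 lower genes became 379 and 933 at 1.5-fold, where 35 histone and 25 mitosis genes were lower and 7 sterol genes higher. Without a background level they were 215 and 301 (58.3% lower), and at the 99th percentile 30 and 75, with the sterol median at 0.93. Requiring both signals above background gave 31 and 118, and raising dim signals to background left 35 higher. Centring on the median of described genes gave 118 and 102 (46.4% lower), quantile normalization 105 and 111 (51.4%) and lowess 107 and 117 (52.2%). Centring on the ERCC probe sets gave 28 and 318 (91.9%), with 20 histone genes lower. Centring on the hybridization spikes, chosen after seeing the data, gave 10 and 891 (98.9%), a median of -0.54 for all described genes, -1.24 for histones with 35 lower, -0.95 for mitosis with 24 lower, and 0.093 for sterol genes with 2 higher. Why the scalings differ was not tested. Of 46 genes named for size, 29 were past 2-fold with the hybridization spikes, 40 with ERCC and 42 to 46 in the other settings that kept them all. The 99th percentile kept 24 and both signals above background 30, all past 2-fold. Of 128 genes named by rule, 4 changed sign with the hybridization spikes, 2 with ERCC and 1 in each other rescaling. No paired analysis was possible because each condition has 1 array. With 1 array each, noise, compound and dose cannot be told apart, and signals near background limit the folds of dim genes.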

Other observations

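Probe sets with no gene in the annotation used, controls aside, numbered 3739, and 941 of them lay above background with C-30 at 0.5 µM or with No.10-3. Of these, 12 were 2-fold higher and 14 lower with C-30, a share of 2.76%, and their median difference was -0.08. Negative control probe sets passed 2-fold in 29.7% of 612 cases, of which 48 lay above the background level and are given above. The 23 probe sets that read background by GC content had a median difference of 0.01 and a robust SD of 0.0485. Outside the described genes, 276 genes below background on both arrays were past 2-fold.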
